A study of Mus musculus with 119 samples.

Results

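The 9 genes described here, Ngp, Ltf, Camp, Lcn2, S100a8, S100a9, Chil3, Cd177 and Retnlg, encode proteins that are abundant in neutrophils. They were taken by symbol from a table of 18098 genes in RNA-seq libraries of mouse bone marrow-derived macrophages (BMDMs), and all 9 symbols were found. They were listed because their levels were raised in Elk1-/-Elk4-/- cells in these same data, so their levels in those cells against WT or solvent-treated cells are given as a description, with no p value and no count of calls. All cells carried the strain label C57BL/6(NIMR) and were grown from marrow of the femurs for 7 days in L-cell conditioned medium.

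Libraries of 7 kinds were available, with the number of libraries per group in parentheses. Untreated WT cells were sampled unstimulated (6) and after 0.5 h (6), 1 h (6) and 2 h (4) of LPS at 100 ng/ml. Map3k8[D270A] cells, which carry catalytically inactive TPL-2, were sampled at the same 4 times (6 each). Elk1-/-Elk4-/- cells, which lack 2 of the ternary complex factors that act downstream of ERK1/2, were also sampled at these times (4 each). Nfkb1[SS/AA] cells, in which p105 cannot be phosphorylated by the IKK complex to release TPL-2, were sampled without LPS and at 0.5 and 1 h (6 each). WT cells given the MKK1/2 inhibitor PD0325901 at 0.1 µM were sampled after 10, 40 and 70 min without LPS (3 each), and after LPS for 0.5 and 1 h that followed 10 min of inhibitor (6 each). Solvent-treated WT cells (DMSO, 10 min, without LPS) gave 3 libraries. WT cells given the RSK inhibitor RSKi47 at 2 µM were sampled without LPS (4) and at 0.5 h (3), 1 h (4) and 2 h (4) of LPS. The sources used here give no ages of the animals. By their labels, the Elk1-/-Elk4-/-, Nfkb1[SS/AA], RSKi47 and PD0325901 libraries each came from an experiment of their own. WT libraries without any additive came only from the experiment that held the Map3k8[D270A] cells.

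Neutrophils fill their granules in waves as they mature in the bone marrow. Primary granules, with myeloperoxidase and serine proteases, form first in promyelocytes, and secondary granules, with lactoferrin, cathelicidin and lipocalin, form later in myelocytes under control of C/EBP transcription factors. Mature macrophages make little of most of these proteins, although Lcn2 is induced by LPS in macrophages, Chil3 is made by alternatively activated macrophages, and S100a8 and S100a9 are shared by neutrophils and monocytes.

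Levels are given on the log2 scale of the deposited values, on which the 18098 genes ran from -2.40 to 19.81. The sources used here do not give the transformation. It held low values together, so a difference of 1 need not be a doubling of reads. Targeted genes were as labelled, with Elk1 at 9.14 ± 0.05 (SD, n = 6) in WT cells and 6.36 ± 0.18 (n = 4) in Elk1-/-Elk4-/- cells without LPS, and Elk4 at 7.72 ± 0.09 and 5.71 ± 0.17. The D270A and SS/AA alleles change amino acid residues, and the RNA levels of Map3k8 and Nfkb1 are no check of them. Depth per library is unknown, no 2 libraries held identical values, and the labels do not say which replicates were separate animals, so p values measure only the spread between libraries.

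Of the 9 genes, 3 lie near one another on mouse chromosome 9 in GRCm38.p6. Camp, which encodes the cathelicidin CRAMP, is at chr9:109847377-109849456 on the minus strand. Ngp, which encodes a cystatin-like secondary granule protein, is at chr9:110419808-110423012 on the plus strand, 570 kb away. Ltf, the gene of the iron-binding protein lactoferrin, is at chr9:111019292-111042766 on the plus strand, 596 kb further on. On chromosome 3, S100a8 (chr3:90669071-90670034, plus) and S100a9 (chr3:90692630-90695721, minus) are 22.6 kb apart and encode the 2 subunits of calprotectin, which is held in the cytosol rather than in granules. Chil3, the chitinase-like protein Ym1, is on the same chromosome at chr3:106147554-106167564 (minus). The remaining genes are Lcn2 (chr2:32384637-32387739, minus), which encodes the siderophore-binding protein lipocalin 2, Cd177 (chr7:24743983-24760334, minus), a glycoprotein of the neutrophil surface and secondary granule membrane, and Retnlg (chr16:48872608-48874498, plus), resistin-like gamma.

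Promoter windows of RefSeq (GRCm38.p6, 250 bases before to 50 after the gene start) were matched for all 9 genes. The motif TTGCNNAA, which holds a C/EBP half-site, was searched on both strands (TTNNGCAA on the other), and 5 of the 9 windows held it, against 10.8% of 32851 windows. The spelling was chosen after matches had been seen. A looser spelling, TTNCNNAA, was in 8 of 9 windows and in 40.7% of all windows. CCGGAA, the core bound by ETS factors such as ELK1 and ELK4, was in 1 window (Cd177), against 14.9% of all windows. The TATA motif TATAAA was in 4 of 9 windows (S100a8, S100a9, Chil3 and Cd177), against 13.6%. A match is a string of letters in this window only, and no binding was measured. The 250 bases before the start are shown for the 5 genes with the C/EBP motif, 5′ to 3′ on the gene's own strand with the matches in capitals. They begin at bases -75 (Ltf), -138 and -11 (Ngp), -216 (Lcn2), -236 (S100a9) and -246 (Retnlg) from the start.
Ltf, chr9:111019042-111019291 (+): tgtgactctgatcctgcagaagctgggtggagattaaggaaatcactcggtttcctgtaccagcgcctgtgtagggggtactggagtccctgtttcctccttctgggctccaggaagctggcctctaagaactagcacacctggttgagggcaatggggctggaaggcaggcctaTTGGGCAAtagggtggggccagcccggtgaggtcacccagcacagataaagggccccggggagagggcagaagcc
Ngp, chr9:110419558-110419807 (+): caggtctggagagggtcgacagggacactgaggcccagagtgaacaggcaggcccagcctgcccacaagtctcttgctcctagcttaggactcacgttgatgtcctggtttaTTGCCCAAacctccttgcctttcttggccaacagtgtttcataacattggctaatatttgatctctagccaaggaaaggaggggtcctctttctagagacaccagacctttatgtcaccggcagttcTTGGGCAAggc
Lcn2, chr2:32387740-32387989 (-): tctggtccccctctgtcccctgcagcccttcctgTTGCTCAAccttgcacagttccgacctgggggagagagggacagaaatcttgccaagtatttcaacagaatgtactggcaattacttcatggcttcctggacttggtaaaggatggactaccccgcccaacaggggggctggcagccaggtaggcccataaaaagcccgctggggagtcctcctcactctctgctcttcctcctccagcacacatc
S100a9, chr3:90695722-90695971 (-): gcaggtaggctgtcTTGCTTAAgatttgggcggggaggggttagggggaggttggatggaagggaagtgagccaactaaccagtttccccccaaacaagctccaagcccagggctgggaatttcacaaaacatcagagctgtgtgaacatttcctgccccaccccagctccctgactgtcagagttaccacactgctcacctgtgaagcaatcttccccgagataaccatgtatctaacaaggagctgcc
Retnlg, chr16:48872358-48872607 (+): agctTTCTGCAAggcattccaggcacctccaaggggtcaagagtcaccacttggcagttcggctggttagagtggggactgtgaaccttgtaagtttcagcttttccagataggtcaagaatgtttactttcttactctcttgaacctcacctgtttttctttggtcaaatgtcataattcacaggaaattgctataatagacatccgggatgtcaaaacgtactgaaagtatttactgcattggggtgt

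The 9 genes stood highest in Elk1-/-Elk4-/- cells among the 7 arms without LPS. All 16 Elk1-/-Elk4-/- libraries, with or without LPS, lay above all 103 other libraries for 8 of the 9 genes, as they did for 0.551% of 11971 genes. Nothing is read from this count, since these libraries chose the genes. The exception was Lcn2, whose lowest Elk1-/-Elk4-/- library (6.07) lay below the highest of the others (6.92, a WT library at 2 h of LPS). A linear value of at least 10 was reached in every library by 6 of the genes. Camp reached it in 16 Elk1-/-Elk4-/- libraries, Cd177 in 11 and Retnlg in 7, and none of these 3 reached it in any other library. They passed the filter on low values only through the cells in which they are high.

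**Figure D1:**
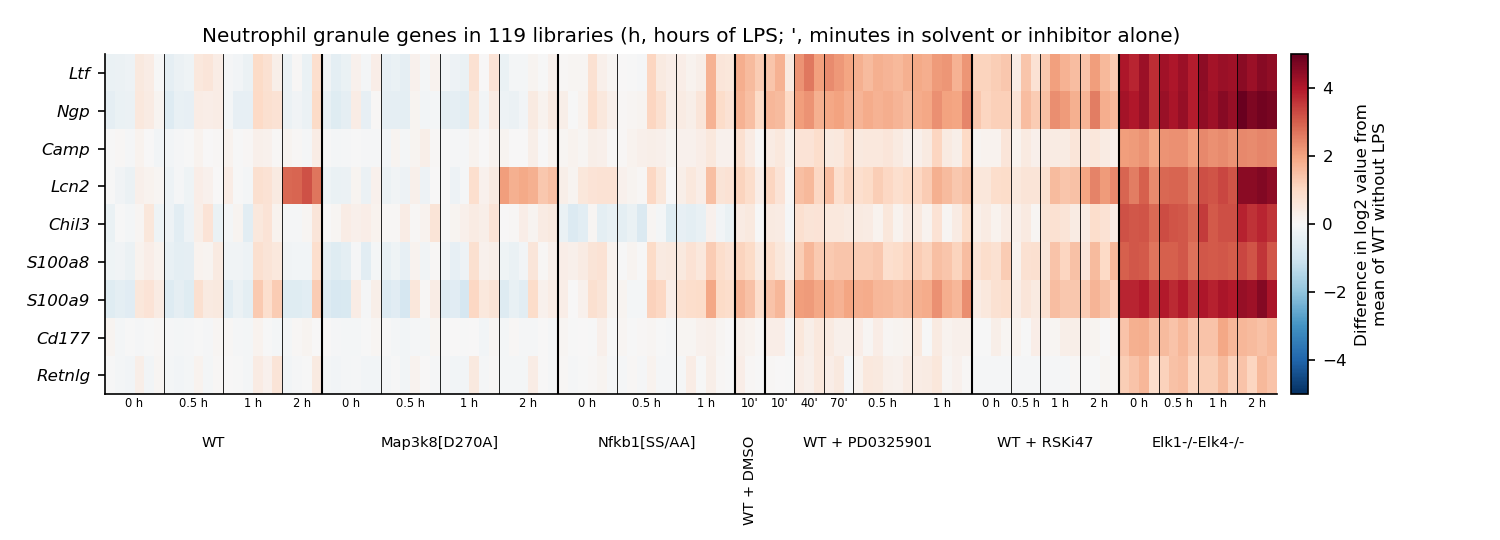
Difference of each of the 9 genes from its mean in WT cells without LPS (log2 scale of the deposited values) in each library, grouped by genotype, inhibitor and LPS time. The block of 16 Elk1-/-Elk4-/- libraries stands out for all genes, and Lcn2 is also high in the other groups at 2 h of LPS.

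Ngp and Ltf, both secondary granule genes, differed by similar amounts. For Ngp, in the 4 Elk1-/-Elk4-/- libraries without LPS levels were 8.33, 8.17, 8.48 and 7.88, and in the 6 WT libraries they ran from 3.75 through a median of 4.10 to 4.70. These groups were far apart and did not overlap. Elk1-/-Elk4-/- libraries without LPS lay wholly above WT for 20.6% of 11971 genes and wholly below for 18.3%. The remaining arms lay between them or with WT. Ngp was at 5.92, 5.69 and 5.15 in the DMSO libraries, at 5.83, 5.74 and 5.16 after 10 min of PD0325901, and at 5.51, 5.24, 5.39 and 5.38 with RSKi47. These 3 arms overlapped one another and lay above every library of the last 3. Nfkb1[SS/AA] cells (4.17 to 5.01, median 4.45), WT cells and Map3k8[D270A] cells (3.58 to 4.54, median 3.79) overlapped in that order.

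Ltf showed a similar picture. It was at 7.88, 7.66, 8.12 and 7.53 in Elk1-/-Elk4-/- cells without LPS and between 3.53 and 4.33 (median 3.71) in WT cells, again without overlap. DMSO libraries held 5.67, 5.43 and 5.11, RSKi47 libraries held 4.96, 4.98, 5.07 and 5.18, and PD0325901 libraries at 10 min held 5.23, 5.59 and 4.28. DMSO and RSKi47 cells overlapped and both lay above WT cells, whereas 1 of the 3 PD0325901 libraries fell within the WT range. Nfkb1[SS/AA] (3.92 to 4.61, median 3.95) and Map3k8[D270A] cells (3.37 to 4.17, median 3.71) overlapped WT.

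Camp, an antimicrobial peptide gene, was low in all arms other than Elk1-/-Elk4-/-. Its levels there were 4.27, 4.32, 4.43 and 4.13 without LPS, against 2.05 to 2.34 (median 2.16) in WT cells, with no overlap. Without LPS, and with inhibitors for 10 min, the means of the other arms ran from 2.13 in Map3k8[D270A] to 2.60 in DMSO libraries, and neighbours in that order overlapped. Longer PD0325901 gave means of 2.91 (40 min) and 2.80 (70 min).

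Lcn2 was at 6.63, 6.29, 6.72 and 6.07 in Elk1-/-Elk4-/- cells without LPS and between 3.42 and 3.97 (median 3.75) in WT cells. The groups did not overlap. Means of the other arms were 4.51 (DMSO), 4.46 (RSKi47), 4.33 (PD0325901, 10 min), 4.25 (Nfkb1[SS/AA]) and 3.61 (Map3k8[D270A]), and each of these overlapped the next. Every DMSO, RSKi47 and Elk1-/-Elk4-/- library lay above every WT library. Over 11971 genes, DMSO libraries without LPS lay wholly above WT for 14.986% and wholly below for 14.318%. For RSKi47 libraries these shares were 19.522% and 18.946%.

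Of the calprotectin subunits, S100a9 was at 8.99, 8.97, 9.12 and 8.69 in Elk1-/-Elk4-/- cells without LPS and between 4.57 and 5.84 (median 5.14) in WT cells. S100a8 ran from 7.60 to 8.02, against 4.62 to 5.25 (median 4.91). Neither gene overlapped between the genotypes. S100a9 was at 6.86, 6.61 and 6.06 in DMSO libraries and at 5.55, 5.70, 5.93 and 6.01 with RSKi47, so that DMSO lay above all WT libraries and RSKi47 overlapped them. S100a8 was at 6.02, 5.88 and 5.36 with DMSO and at 5.60, 5.80, 5.68 and 6.19 with RSKi47, both above all WT libraries.

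Chil3 was at 8.21, 8.14, 8.16 and 7.86 in Elk1-/-Elk4-/- cells without LPS and between 4.70 and 5.58 (median 4.98) in WT cells. No library of any other arm exceeded 5.93 at any time, and its mean without LPS in the other arms lay between 4.64 (Nfkb1[SS/AA]) and 5.73 (PD0325901 for 40 min). Cd177 was at 3.32, 3.66, 3.71 and 3.39, against 1.80 to 2.02 (median 1.85) in WT cells. Retnlg was at 3.15, 3.33, 3.58 and 2.79, against 1.78 to 2.22 (median 1.84). The genotypes did not overlap for any of these 3 genes, and the highest mean of the other groups without LPS was 2.33 for Cd177 and 2.29 for Retnlg, both after 40 min of PD0325901. Elk1-/-Elk4-/- libraries without LPS thus lay wholly above WT for all 9 genes, as they did for 20.6% of 11971 genes. Nothing is read from this count either, since this contrast chose the genes.

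**Figure D2:**
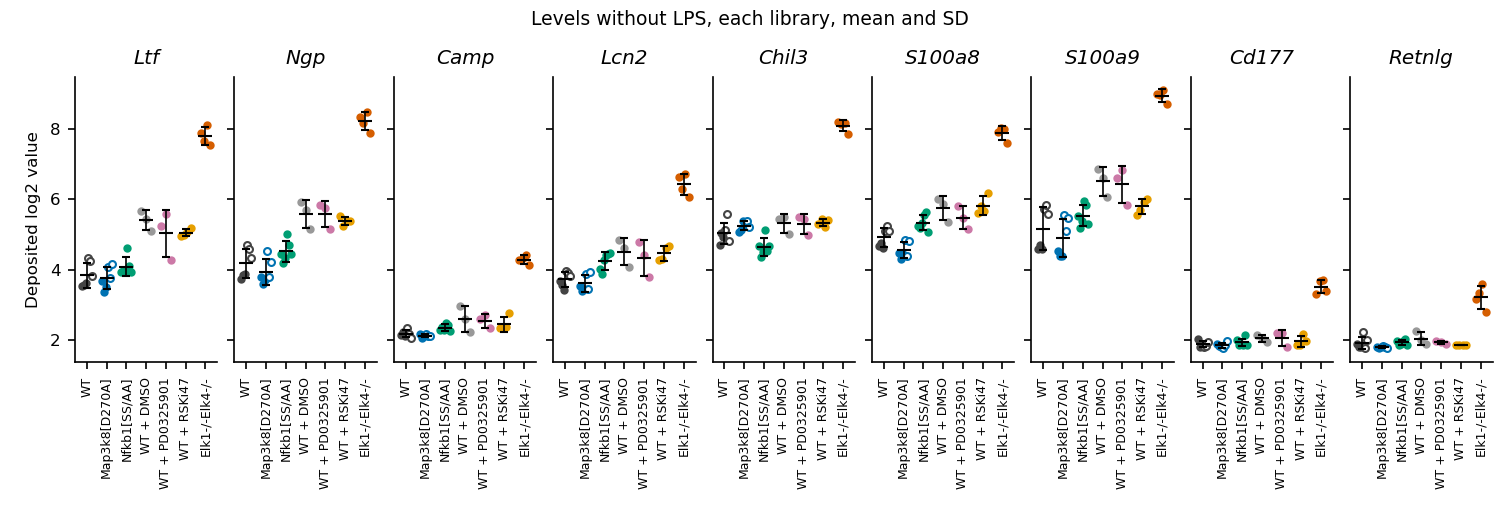
Levels of the 9 genes without LPS (log2 scale of the deposited values, 1 point per library, bars for mean and SD) by arm, with WT replicates 7 to 9 and Map3k8[D270A] replicates 4 to 6 as open circles. Elk1-/-Elk4-/- libraries lie above all others, and DMSO libraries lie above WT for Ngp, Ltf, Lcn2, S100a8 and S100a9. DMSO libraries lay wholly above WT for 14.986% of 11971 genes and wholly below for 14.318%.

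As differences of group means, Elk1-/-Elk4-/- cells without LPS were above WT cells by 4.04 (SE 0.26) for Ngp, 3.95 (0.23) for Ltf, 2.11 (0.07) for Camp and 2.70 (0.16) for Lcn2. The differences were 3.78 (0.39) for S100a9, 2.97 (0.21) for S100a8, 3.06 (0.18) for Chil3, 1.64 (0.07) for Cd177 and 1.30 (0.13) for Retnlg. At the successive times (0, 0.5, 1 and 2 h of LPS) their medians were 2.97, 3.04, 2.86 and 3.18, and the median over all 11884 genes tested was 0.01 without LPS. This contrast chose the genes. Since bulk RNA was sequenced, more cells of a type that makes these RNAs and more of these RNAs per cell cannot be told apart.

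Per kilobase of transcript, linear levels without LPS in Elk1-/-Elk4-/- cells were highest for S100a9 (953 ± 113, SD, n = 4), followed by S100a8 (489 ± 62.5), Ngp (246 ± 41.9) and Chil3 (178 ± 18.4). Lcn2 (95.7 ± 19.5) and Ltf (82.2 ± 15.1) did not differ beyond their spread, and Camp (25.8 ± 2.22), Retnlg (15.9 ± 3.55) and Cd177 (4.25 ± 0.571) came last. In WT cells the order began with S100a9 (74.5 ± 30.4, n = 6) and S100a8 (63.0 ± 11.5), which did not differ beyond their spread. Together the 9 genes took 0.00680 to 0.00894% of the summed linear values in Elk1-/-Elk4-/- cells without LPS and 0.000608 to 0.00107% in WT cells.

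The experiment and the Elk1-/-Elk4-/- genotype cannot be told apart, because no WT library was labelled as part of that experiment. Solvent-treated WT cells of the PD0325901 experiment were compared with untreated WT cells without LPS, in a comparison added after seeing the data in which solvent and experiment cannot be told apart. They were higher by 1.56 for Ltf (SE 0.25, adjusted p = 1.33e-06, limma), by 1.41 for Ngp (SE 0.26, adjusted p = 2.38e-05) and by 1.35 for S100a9 (SE 0.35, adjusted p = 0.00287). With the thresholds used throughout for a called gene (a limma p adjusted by Benjamini-Hochberg to under 0.05, with a size of 1 or more), 3 of the 9 were called higher where 0.284% of 11971 genes were. In this and every other comparison without Elk1-/-Elk4-/- cells, Camp, Cd177 and Retnlg lay below the minimum of the filter in all libraries compared, so that their values there are near the floor. The untreated WT libraries are those against which the 9 genes were chosen, so in this and the later comparisons with WT cells nothing is read from a count of members beside its background. Against the DMSO libraries, the differences of Elk1-/-Elk4-/- cells ran from 1.18 for Retnlg to 2.77 for Chil3, with a median of 2.13.

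Replicates of one genotype also differed. WT replicates 7 to 9 lay above replicates 4 to 6 for Ngp, Ltf, S100a8 and S100a9 at every time without overlap, with a single library, replicate 7, at 2 h. For S100a9 without LPS the levels were 4.57, 4.69 and 4.58 in replicates 4 to 6 and 5.72, 5.84 and 5.59 in replicates 7 to 9. In Map3k8[D270A] cells, S100a9 was at 4.53, 4.37 and 4.39 in replicates 1 to 3 and at 5.55, 5.11 and 5.46 in replicates 4 to 6. For S100a9 both genotypes thus held a lower and a higher set of 3. In Map3k8[D270A] cells without LPS the sets did not overlap for Ltf either. They overlapped for Ngp, S100a8 and Lcn2 through replicate 5, at 3.78, 4.39 and 3.44. The median gap over the 9 genes between the WT sets was 0.33, 0.57, 0.64 and 0.61 at the successive times, and the largest was 1.85. Against replicates 4 to 6 alone the median difference of Elk1-/-Elk4-/- from WT cells was 3.20 without LPS, and against replicates 7 to 9 alone it was 2.73. The labels do not say what separates the sets.

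**Figure D3:**
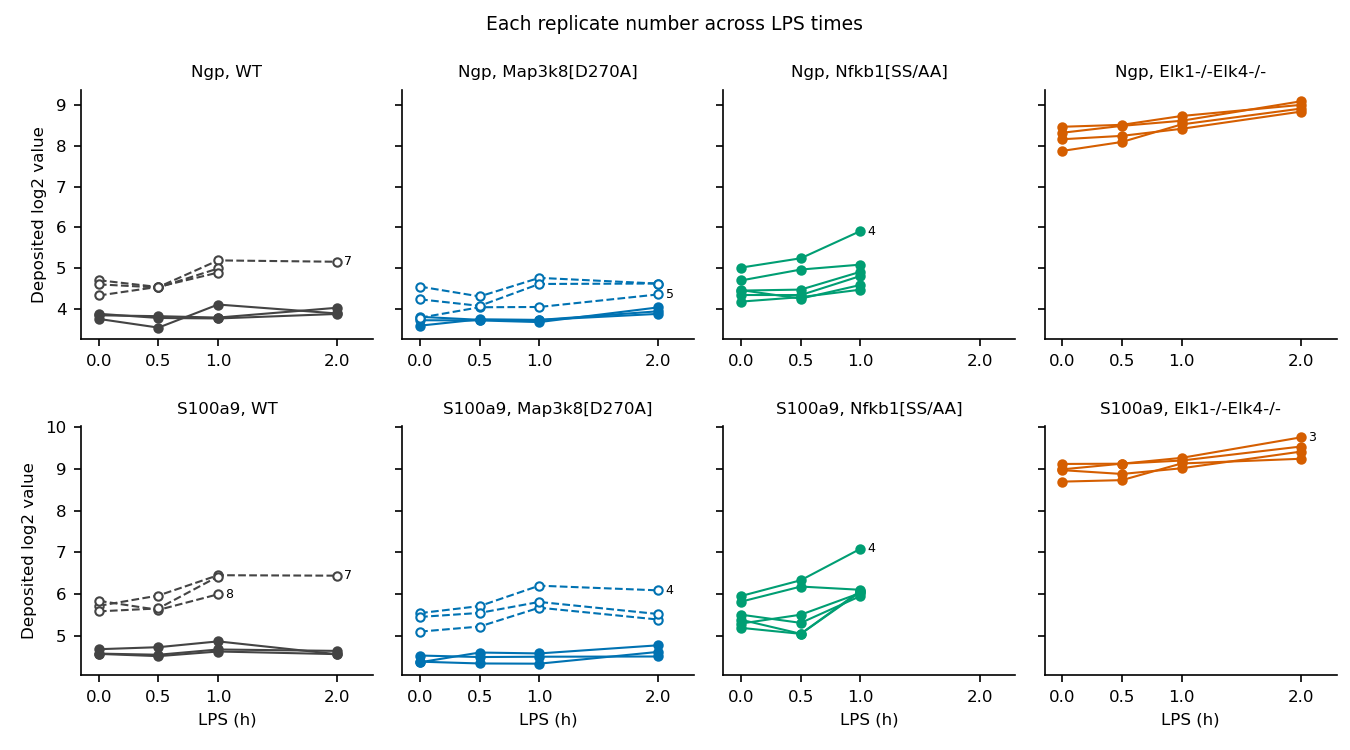
Levels of Ngp and S100a9 (log2 scale of the deposited values) against hours of LPS, 1 line per replicate, in WT, Map3k8[D270A], Nfkb1[SS/AA] and Elk1-/-Elk4-/- cells, with WT replicates 7 to 9 and Map3k8[D270A] replicates 4 to 6 dashed. In both WT and Map3k8[D270A] cells the dashed S100a9 lines lie above the solid ones at every time.

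Catalytic inactivation of TPL-2 left 8 of the 9 genes without a called difference from WT. Lcn2 at 2 h of LPS was the exception. Its levels were 6.58, 6.62, 6.92 and 6.39 in WT cells and ran from 5.06 through a median of 5.51 to 5.81 in Map3k8[D270A] cells, so the groups did not overlap. It was lower by 1.17 (SE 0.16, adjusted p = 9.57e-08, limma). In all, 0.799% of 11884 genes changed in either direction at 1 or more times. The difference was -1.06 within WT replicates 4 to 6 and Map3k8[D270A] replicates 1 to 3, and -1.12 within the other set. Without LPS and at 0.5 and 1 h, differences of the 9 genes ran from -0.37 (S100a8 without LPS) to 0.30 (Chil3 at 0.5 h), and none had an unadjusted p below 0.05 when the sets of replicates were pooled. Within each set S100a8 and S100a9 without LPS were lower in every Map3k8[D270A] than in every WT library, by 0.28 and 0.46 for S100a8 and by 0.18 and 0.35 for S100a9. With the set as a term, added after seeing the data, S100a8 without LPS was lower by 0.37 (SE 0.10, adjusted p = 0.034, limma). Ngp at 1 h was lower by 0.36 (SE 0.12, adjusted p = 0.0284, limma). Both stayed below 1, and Lcn2 at 2 h remained the only call. In that fit 2.69% of all genes without LPS and 13.6% at 1 h had an adjusted p below 0.05. The sets were seen in the levels of these same genes, so nothing is read from the p values of S100a8 and Ngp.

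LPS raised Lcn2 by more than any of the other genes in WT cells. In WT cells Lcn2 went from a mean of 3.73 ± 0.21 (SD, n = 6) to 6.63 ± 0.22 (n = 4) at 2 h, with no overlap, a difference of 2.90 (SE 0.16, adjusted p = 8.66e-23, limma). At 1 h it was higher by 0.37 (adjusted p = 0.0318), short of the threshold of 1, and at 0.5 h the difference was 0.01. At 2 h the other 8 genes had differences between -0.11 (S100a9) and 0.15 (Chil3), but WT replicates 8 and 9, of the higher set, were not sampled then. With the replicate number as a block S100a9 was at 0.18 (adjusted p = 0.111), and Ngp (0.25), Ltf (0.21), S100a8 (0.27) and Chil3 (0.26) reached an adjusted p below 0.05, the largest of their p values being 0.0324 for Ltf. At 1 h the same fit gave 0.34 for S100a9 (SE 0.09, adjusted p = 0.000874), 0.27 for Ngp (adjusted p = 0.0033), 0.26 for Ltf (adjusted p = 0.0046) and 0.22 for S100a8 (adjusted p = 0.0132). These increases were all below 1, and with the block 57.6% of all genes at 1 h and 78% at 2 h had an adjusted p below 0.05. With or without the block 1 of 9 genes was called higher at 1 or more times in WT cells, where 8.28% of all genes were.

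Lcn2 was induced in each arm sampled at 2 h, in fits that took libraries as unpaired. In Map3k8[D270A] cells it was higher by 1.85 (SE 0.15, adjusted p = 8.37e-17, limma), and it was the 1 gene of 9 called, against 7.51% of genes. In Elk1-/-Elk4-/- cells its levels at 2 h were 8.23, 8.24, 8.37 and 8.20, above all 4 libraries without LPS. The difference was 1.83 (SE 0.18, adjusted p = 2.28e-13), and again 1 of 9 genes was called, against 7.85% of genes. With RSKi47 the levels at 2 h were 5.71, 6.22, 5.86 and 6.13, below every WT library at that time and above every RSKi47 library without LPS. This difference was 1.52 (SE 0.20, adjusted p = 8.56e-11), and 1 of 9 genes was called, against 6.12% of genes.

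At 2 h the response of Lcn2 differed from that of WT cells in both arms in which it was tested. It was smaller by 1.05 in Map3k8[D270A] cells (SE 0.22, adjusted p = 0.000329, limma interaction term) and smaller by 1.38 with RSKi47 (SE 0.27, adjusted p = 3.97e-05). At 0.5 and 1 h no difference in its response was called, and no other gene of the 9 had one at any time, while 0.69% and 1.24% of genes did at 1 or more times. The Map3k8[D270A] value fell short of 1 in size in 3 of 21 alternatives (without Map3k8[D270A] replicate 6, without WT replicate 6, or with 8 added to the linear values), the smallest being -0.89. For the Elk1-/-Elk4-/- cells this difference was not tested, since their contrast with WT chose the genes.

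In Elk1-/-Elk4-/- cells other genes also moved upward by 2 h, none by 1 or more. Ngp went from 8.33, 8.17, 8.48 and 7.88 to 9.10, 8.85, 9.01 and 8.92, and Chil3 from 8.21, 8.14, 8.16 and 7.86 to 8.87, 8.64, 8.84 and 8.61. Neither gene overlapped between the times. The differences were 0.76 for Ngp (SE 0.28, adjusted p = 0.015, limma), 0.65 for Chil3 (SE 0.20, adjusted p = 0.00311) and 0.30 for Camp (SE 0.08, adjusted p = 0.000647), where 67.2% of all genes had an adjusted p below 0.05. Ltf (0.49), S100a9 (0.54) and S100a8 (0.32) had an adjusted p above 0.05 with libraries taken as unpaired. The 2 h libraries lay wholly above those without LPS for 5 of the 9 genes, as they did for 32.3% of all genes.

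**Figure D4:**
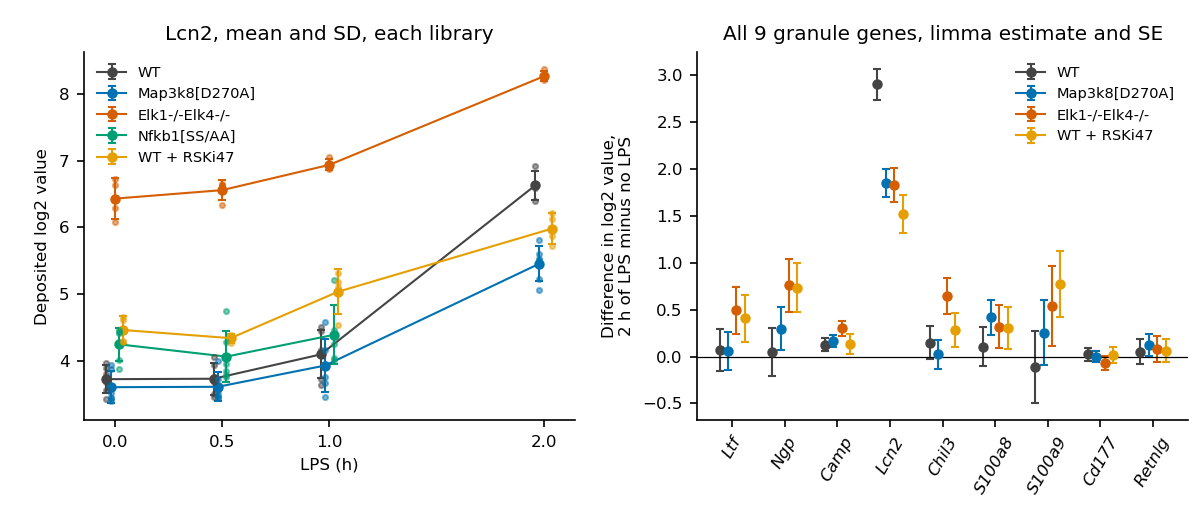
Left, Lcn2 (log2 scale of the deposited values, mean and SD, small points for libraries) against hours of LPS in each arm other than PD0325901 and DMSO. Right, difference of 2 h of LPS from no LPS (limma estimate and SE) for the 9 genes in WT, Map3k8[D270A], Elk1-/-Elk4-/- and RSKi47-treated cells, where Lcn2 is the only gene past 1.

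Nfkb1[SS/AA] cells, sampled to 1 h, showed no called difference from WT in any of the 9 genes, where 1.42% of 11971 genes changed at 1 or more times (limma, adjusted p). Of the 6 genes at the minimum in every library, 5 reached an unadjusted p below 0.05 at 1 or more times, as did 65.9% of all genes. S100a9 at 1 h ran from 5.96 through a median of 6.07 to 7.09, against 4.63, 5.44 and 6.46 in WT cells. The groups overlapped, and the difference was 0.71 (SE 0.29, adjusted p = 0.0382), but -0.07 (adjusted p = 0.864) against WT replicates 7 to 9 alone. Lcn2 without LPS was higher by 0.52 (SE 0.16, adjusted p = 0.00893), S100a8 at 1 h by 0.54 (SE 0.18, adjusted p = 0.0101), and Chil3 was lower by 0.39 without LPS (SE 0.15, adjusted p = 0.0376). All stayed below the threshold of 1, and genotype and experiment cannot be told apart. With libraries taken as unpaired, LPS called none of the 9 within these cells, where 3.63% of genes changed. Of the 9, 2 had an unadjusted p below 0.05, as did 57.7% of genes. Their response differed from that of WT cells for 0 of the 9 genes, all with an unadjusted p above 0.05, where 0.551% of genes differed.

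PD0325901 for 10 min, compared with DMSO for the same time in the same experiment, gave no call among the 9 genes. None reached an unadjusted p of 0.05 either, and 0% of 11971 genes passed both thresholds, with 245 at an unadjusted p below 0.05 (limma). The largest difference was -0.37 for Ltf. With longer exposure Ltf was at 6.09, 6.48 and 5.90 after 40 min and at 6.19, 6.02 and 5.83 after 70 min, above all 3 libraries at 10 min (5.23, 5.59 and 4.28). Against 10 min it was higher by 1.13 at 40 min (SE 0.29, adjusted p = 0.0114), the 1 gene of 9 called at 1 or more times, where 0.267% of genes were called higher. S100a8 (0.84, adjusted p = 0.041) and Lcn2 (0.80, adjusted p = 0.0304) were higher at 40 min by less than 1. All 9 differences at 40 min were above 0 (0.26 to 1.13), and of the 6 genes at the minimum in every library 5 had an unadjusted p below 0.05, as did 14.6% of all genes. S100a9 did not, and Camp, Cd177 and Retnlg, which lay near the floor, are not counted. The Ltf call at 40 min was lost without replicate 1 (1.26, adjusted p = 0.052), 2 (1.24, adjusted p = 0.0781) or 3 (0.88, adjusted p = 0.251), and no solvent control was sampled at 40 or 70 min.

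LPS added to PD0325901 moved none of the 9 genes past both thresholds against the inhibitor alone for the same time, where 4.46% of genes changed at 1 or more times (limma). Of the 6 genes at the minimum in every library, 2 had an unadjusted p below 0.05, both at 0.5 h, as did 27.1% of all genes at that time. These were Ltf at -0.61 (adjusted p = 0.0915) and Lcn2 at -0.41 (adjusted p = 0.16). Lcn2 at 1 h ran from 4.78 through a median of 5.16 to 5.52, against 5.26, 4.55 and 4.85 after 70 min of inhibitor alone. These groups overlapped.

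Against WT cells with LPS, which came from another experiment, PD0325901-treated cells with LPS were higher for 5 of the 9 genes at 1 or more times, where 0.334% of genes were. At 1 h Ngp ran from 6.05 through 6.18 to 6.64 with the inhibitor and from 3.76 through 4.49 to 5.19 in WT cells, with no overlap. The difference was 1.82 (SE 0.21, adjusted p = 1.73e-11, limma), and those of Ltf (1.74), S100a9 (1.61), S100a8 (1.09) and Lcn2 (1.06) were also past both thresholds. At 0.5 h the 4 called were Ngp (1.79), Ltf (1.61), S100a9 (1.66) and S100a8 (1.21). Inhibitor and experiment cannot be told apart here, and the DMSO libraries of the same experiment, which held no inhibitor, were higher than untreated WT by 1.41 for Ngp and 1.56 for Ltf. The Lcn2 value at 1 h fell short of 1 without PD0325901 replicate 3 or WT replicate 5 or 6, and that of S100a8 without WT replicate 6, with lowest values of 0.78 and 0.66 over all alternatives. With WT replicates 7 to 9 as the control, 3 of the 9 were called, and the control libraries are those used to choose the genes.

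RSKi47-treated cells were higher than WT cells for 4 of the 9 genes at 1 or more times, where 1.65% of genes were. Ngp at 2 h was at 5.90, 6.74, 6.00 and 5.81 with the inhibitor and at 3.88, 4.02, 3.87 and 5.15 in WT cells. The groups did not overlap, and the difference was 1.88 (SE 0.26, adjusted p = 1.88e-09, limma). Ltf was higher by 1.54 at 2 h (SE 0.25, adjusted p = 1.6e-07), S100a9 by 1.51 (SE 0.35, adjusted p = 0.000169) and S100a8 by 1.10 (SE 0.22, adjusted p = 1.32e-05). The S100a8 value fell short of 1 without RSKi47 replicate 2 or 4, and was 0.36 (adjusted p = 0.384) against WT replicate 7 alone. Here too the WT libraries are those used to choose the genes. Without LPS, Ltf and Ngp were each higher by 1.20 (adjusted p = 5.84e-06 and 1.28e-05). Retnlg differed by -0.21 at most in size, and Lcn2 at 2 h was lower by 0.65 (SE 0.20, adjusted p = 0.0044). Against the DMSO libraries without LPS none of the 9 was called and none had an unadjusted p below 0.05, where 1.17% of genes changed, with differences from -0.71 (S100a9) to 0.06 (S100a8). With WT replicates 7 to 9 as the control 2 of the 9 were called, and at 2 h, where that control is 1 library, S100a9 was higher by 0.12.

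Among the libraries of one group the 9 genes varied together. Over deviations of all libraries from their group means, the correlation (Pearson's r) of the 36 pairs ran from 0.12 to 0.92 with a median of 0.53, and it was 0.92 for Ngp with Ltf and 0.85 for S100a8 with S100a9. Ngp (0.90), Ltf (0.87), S100a9 (0.86) and S100a8 (0.84) followed the mean of the other 8 most closely. Cd177 followed it least (0.27), with Retnlg at 0.55 and Camp at 0.58. These last genes lay below the filter's minimum, near the floor, in all 103 libraries outside Elk1-/-Elk4-/- cells, which compresses their deviations there. Libraries of one culture share their level, so these values describe these libraries and carry no p. Of 11970 genes, the 9 included, those outside the 9 most like their mean over all libraries were Chil1 (0.96), Ly6c2 (0.93), Dner (0.90), Plac8 (0.88) and Ctse (0.87). That ranking includes the Elk1-/-Elk4-/- libraries that chose the 9, so nothing is read from it. Chil1 reached the filter's minimum in 9 of those libraries and in no other. Over the deviations they were Nptx1 (0.68), Pf4 (0.67), Colec12 (0.66), Ctsl (0.65) and Gapt (0.61), a different set of 5.

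Few other neutrophil genes differed by 1 or more. Of 8 primary granule genes, 2 passed the filter and neither was called in Elk1-/-Elk4-/- against WT cells without LPS, Ctsc (cathepsin C) at 0.08 and Serpinb1a (an inhibitor of neutrophil proteases) at 0.39. Mpo, myeloperoxidase, was below the filter at 1.91 ± 0.30 (n = 4) in Elk1-/-Elk4-/- and 0.72 ± 0.01 (n = 6) in WT cells, and Elane, neutrophil elastase, was at 0.42 ± 0.19 and -0.13 ± 0.02. Of 16 further secondary and tertiary granule genes 11 passed the filter. Chil1, a chitinase-like protein of the family of Chil3, passed it through 9 Elk1-/-Elk4-/- libraries with LPS and no other library, so its level without LPS, from 2.66 to 3.20 in Elk1-/-Elk4-/- and from 1.78 to 1.94 in WT cells, is a description with no test. The difference of 1.15 fell short of 1 with 1 or 8 added to the linear values (0.46 at the lowest). None of the other 10 was called. Cybb and Adam8, the most abundant of that list, differed by 0.11 and -0.03, and the median over the 11 tested was 0.07. Over all 16, with no filter, the median was 0.42 and 2 genes, Chil1 and Itgb2l, differed by 1 or more. Itgb2l, an integrin beta chain, was below the filter at 2.76 ± 0.20 and 1.58 ± 0.04. In that comparison 1.24% of all genes changed in either direction.

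Of 21 genes of mature neutrophils 11 were tested and 0 were called. Of the 11, Cxcr2 and Mcemp1 passed the filter only through Elk1-/-Elk4-/- libraries and are left out of the counts that follow. Of the other 9, 6 were higher by an adjusted p below 0.05 alone (limma), as were 27.2% of all genes, and the median difference was 0.40 (0.29 over all 21 with no filter). Csf3r, the receptor for granulocyte colony-stimulating factor, differed by -0.11 and Ifitm6 by 0.75. Ly6g, which defines mouse neutrophils, was at 0.07 ± 0.24 in Elk1-/-Elk4-/- and -0.23 ± 0.03 in WT cells, near the bottom of the scale in both. The summed linear level of the 21 genes was 0.00809 to 0.00973% of all in Elk1-/-Elk4-/- and 0.00800 to 0.00939% in WT cells, which overlapped. Of 9 transcription factors of granulopoiesis 6 were tested and 0 were called. Spi1 (PU.1) differed by -0.30 and Runx1 by 0.02, and 4 of the 6 were lower by adjusted p alone, as were 24.6% of all genes, with a median of -0.28 over the 6 and 0.02 over all 9. Cebpa (-0.60) and Cebpb (-0.63) were among these, and both were picked after their values were seen. At 2 h of LPS, 1 secondary granule gene (Hp) and 3 mature neutrophil genes were past both thresholds upward, Chil1 left out, and Mmp9 and Cebpb downward, where 2.09% of all genes changed in either direction. Hp (haptoglobin) was higher by 1.67 and Hdc (histidine decarboxylase) by 1.79. Cebpb was lower by 1.37 there (adjusted p = 1.94e-10, limma), Mmp9 fell short of a call without WT replicate 6 or 7, and these genes too were picked after their values were seen.

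Markers of other cells moved in part with the 9 genes, and their part in the result was not tested. Of 12 macrophage markers all were tested and 1 was called, C1qa (complement C1q), lower by 1.12 (SE 0.10, adjusted p = 5.25e-13, limma). With only WT replicates 7 to 9 and Map3k8[D270A] replicates 4 to 6 kept, C1qa fell short of 1 (-0.94). By adjusted p alone 6 of the 12 were lower and 3 higher, as were 24.6% and 27.2% of all genes. The most abundant, Lyz2 (lysozyme) and Cd68, differed by -0.51 and 0.10, and the summed level of the list was 1.90 to 2.00% in Elk1-/-Elk4-/- and 2.29 to 2.62% in WT cells. Of 5 monocyte markers tested 3 were called. Plac8 was higher by 2.10 (SE 0.16, adjusted p = 2.78e-15) and Ly6c2, part of the Ly6C surface antigen of inflammatory monocytes, by 1.70 (SE 0.13, adjusted p = 4.46e-16). Cx3cr1, the fractalkine receptor, was lower by 1.17 (SE 0.21, adjusted p = 4.28e-06), a value that fell short of 1 without Elk1-/-Elk4-/- replicate 3. The monocyte list summed to 0.0231 to 0.0271% and 0.0156 to 0.0288%, which overlapped. Itgax (CD11c) of the 3 dendritic cell markers tested was lower by 1.49 (SE 0.21, adjusted p = 4.73e-08).

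The other marker lists held few genes above the filter. Of 7 basophil and mast cell markers 1 was tested, Kit, the stem cell factor receptor, which was higher by 1.02 (SE 0.29, adjusted p = 0.00272, limma) without LPS and differed by 0.42 at 2 h (adjusted p = 0.276). The value without LPS was not called in 6 of 21 alternatives, among them without Elk1-/-Elk4-/- replicate 3 or WT replicate 7 or 9. Mcpt8 and Cpa3 lay below 0 on the log2 scale in every library. None of the 7 erythroid markers with a value was tested. Of eosinophil (2 of 6 tested), B lineage (1 of 7), T lineage (1 of 6), megakaryocyte (2 of 5) and stromal markers (2 of 6), none was called. The largest of these differences were 0.71 for Ccr3, 0.69 for Cd79b and 0.67 for Pf4.

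**Figure D5:**
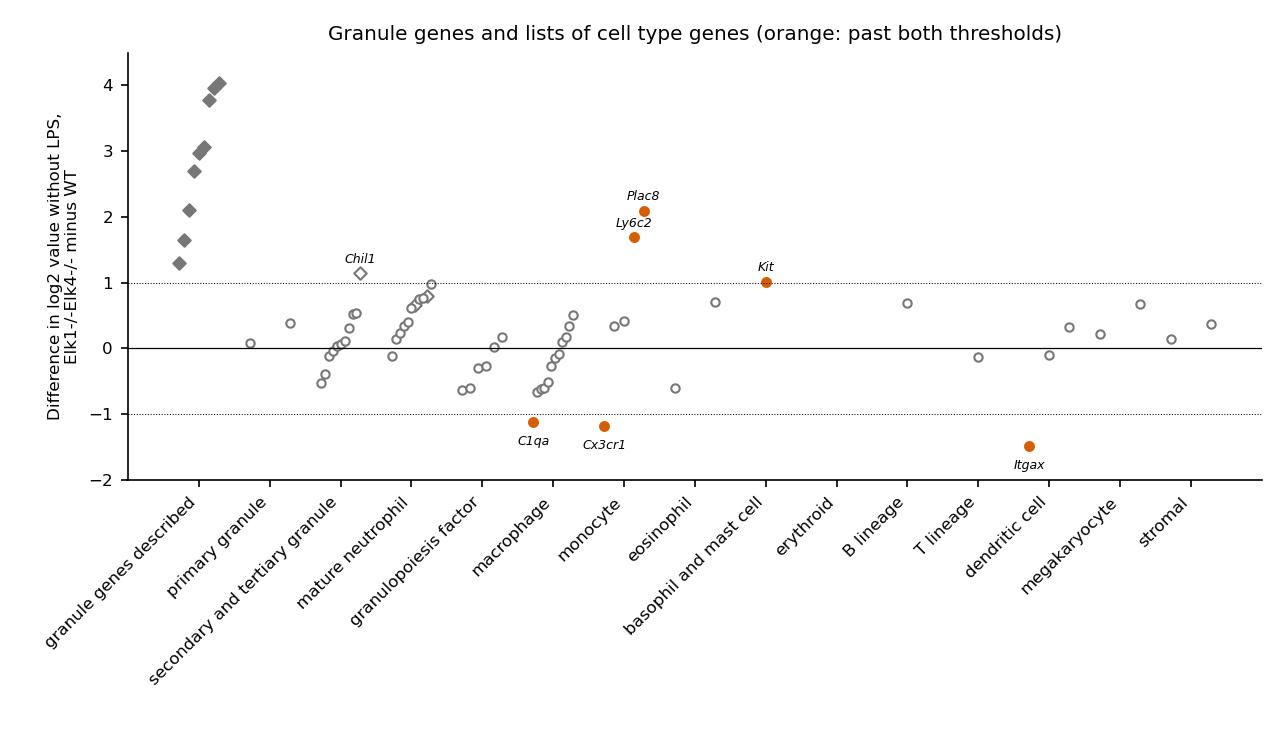
Difference of Elk1-/-Elk4-/- from WT cells without LPS (limma estimate on the log2 scale of the deposited values) for each tested gene of the 9 and of each marker list, with circles orange where past both thresholds filled diamonds for the 9, which this contrast chose, and open diamonds for genes that passed the filter only through Elk1-/-Elk4-/- libraries. The 9 lie between 1.30 and 4.04, whereas most genes of the other lists lie between -1 and 1.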

How the data were processed

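RNA-seq of 119 mouse BMDM libraries in 25 groups was read from 1 table of 18098 genes. Per the study's methods, single-end strand-specific reads were aligned with STAR to mm10 RefSeq genes and quantified with RSEM. The submitters' processing notes name STAR 2.5.1b, RSEM 1.2.29 and DESeq2 1.10.1, whereas the methods give other releases of STAR and RSEM, so the release behind the deposited values is unsettled. The deposited values are on a log2 scale whose exact transformation the sources used here do not give, and they hold no counts, so depth per library is unknown and no count model was fitted. Since the transformation held low values up, differences of low genes are compressed. A linear value is 2 raised to the deposited value.

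The 9 genes and all lists were chosen with earlier results of these data known. The gene rule named all 9, up to 4 genes of each other list (the largest called differences, then the 2 most abundant where fewer than 2 were called), and the 5 most similar genes by each of 2 correlations. limma 3.58.1 in R 4.3.3 was fitted to 62 libraries (WT, Map3k8[D270A] and Elk1-/-Elk4-/-) over 11884 genes that reached a linear 10 in 4 libraries. It was fitted to all 119 libraries over 11971 genes that reached this in 3 libraries. P values were two-sided and adjusted by Benjamini-Hochberg over all genes of a comparison. A call needed both an adjusted p under 0.05 and a size of 1 or more. In a single case a value above 25 (Fosb, RSKi47) was treated as missing. The fits were tested on simulated data. Values were also handled with Python 3.11.15, pandas 2.3.3 and numpy 2.4.6, and plotted with matplotlib 3.10.9.

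Alternatives were the filter, the values log2(linear + 1) and log2(linear + 8), a threshold of 0.693 or none, a replicate block, a fit of only the groups compared, other control sets, the replicate set as a term and leaving out each replicate. Same-numbered libraries of one arm deviated together over time in WT, Map3k8[D270A], Nfkb1[SS/AA] and RSKi47 cells, with mean correlations between 0.22 and 0.72 per number. Their numbers were taken to pair them there, but only in the replicate block. The main fits held no pairing term, so LPS responses given without the block treat libraries as unpaired. In Elk1-/-Elk4-/- and PD0325901 cells numbers were not taken to pair libraries, since 1 Elk1-/-Elk4-/- replicate was at 0.066. Promoter windows and positions came from RefSeq tables of GRCm38.p6.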

Additional observations from a re-analysis of the deposited data

Results flagged for a closer look

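In groups of 4 to 6 libraries, a library stood apart from the rest of its group by Dixon's criterion in 17 of 180 pairs of gene and group (9.44%), where chance gives about 1 in 20. WT replicate 7 at 2 h of LPS, the only library of the higher WT set at that time, stood above the other 3 for Ngp (5.15), S100a8 (5.76), S100a9 (6.44) and Retnlg (2.35). Nfkb1[SS/AA] replicate 4 stood highest for Ltf without LPS (4.61) and at 1 h (5.58), and for S100a9 at 1 h (7.09). RSKi47 replicate 4 stood highest for Camp without LPS (2.77) and at 1 h (2.77), and for Retnlg at 1 h (1.97). RSKi47 replicate 3 at 2 h was lowest for Cd177 (1.90) and highest for Retnlg (2.02). Map3k8[D270A] replicate 4 stood highest for Retnlg at 1 h (2.41) and 2 h (2.27). Elk1-/-Elk4-/- replicate 4 at 0.5 h was lowest for Camp (4.22) and Lcn2 (6.33), and replicate 3 at 1 h was highest for Retnlg (3.51).

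The 2 h response of Lcn2 to LPS differed from that of WT cells by -1.05 in Map3k8[D270A] cells and by -1.38 with RSKi47 (limma interaction terms). The RSKi47 cells came from another experiment than the WT cells, and inhibitor and experiment cannot be told apart.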

How the results depend on the processing

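No value past both thresholds changed sign, but 299 of 7715 values of the 9 genes did. S100a9 with LPS at 2 h in WT cells (-0.11) was 0.18 with the replicate block and 0.20 with the set as a term, and S100a9 in Map3k8[D270A] against WT at 2 h (0.10) was -0.21 with that term. Against WT replicates 7 to 9, Nfkb1[SS/AA] at 1 h turned from 0.51 to -0.06 for Ngp and from 0.71 to -0.07 for S100a9, and RSKi47 at 2 h from 0.45 to -0.01 for Chil3. Between Map3k8[D270A] and WT, whose numbers do not pair libraries, the block turned 8 negative values of Ltf, Ngp, S100a8 and S100a9 up to 1 h positive with an adjusted p below 0.05 (limma), S100a9 at 0.5 h from -0.19 to 0.82. With no threshold on size, the 9 genes called numbered 3 for LPS in Map3k8[D270A] cells, 4 for LPS in Elk1-/-Elk4-/-, 5 for Nfkb1[SS/AA] against WT, 3 for longer PD0325901, 9 for PD0325901 and 8 for RSKi47 against WT, 1 each for LPS in Nfkb1[SS/AA] and under PD0325901, 2 for LPS under RSKi47 and 6 for DMSO against WT; other neutrophil genes numbered 17 and other cell type genes 20. With the lower threshold the counts were 2 (LPS in Elk1-/-Elk4-/-), 1 (Nfkb1[SS/AA]), 3 (longer PD0325901), 2 (LPS under RSKi47), 5 (DMSO) and 5 (other neutrophil genes). No share of all genes is given for these counts or for those with the replicate block, so nothing is read from them. The 17 other neutrophil genes included Chil1, Cxcr2 and Mcemp1, which passed the filter only through Elk1-/-Elk4-/- libraries. For that reason too, nothing is read from the 17. With 8 added, or with only the compared groups fitted, longer PD0325901 gave 0, and other neutrophil genes gave 0 with 1 or 8 added. They gave 3 with no filter and 2 against WT replicates 4 to 6. Against WT replicates 7 to 9, PD0325901 with LPS gave 3 and RSKi47 gave 2. The replicate block gave 3 for Nfkb1[SS/AA], 5 for DMSO and 2 for other neutrophil genes, between arms whose numbers do not pair libraries, and changed no call of the 9 genes where numbers pair them. In Elk1-/-Elk4-/- cells, whose numbers missed the criterion for pairs, the block left the 2 h LPS differences below 1 in all but Lcn2, with adjusted p values of 1.44e-05 for Ltf, 2.06e-05 for S100a9 and 0.00268 for S100a8 (limma), where 75% of all genes were below 0.05. Shares of all genes with an adjusted p below 0.05 at 1 or more times ran from 7.28% (longer PD0325901) to 79.5% (RSKi47 against WT) in these comparisons of the 9. The counts with no threshold thus stand against backgrounds that differ widely, and nothing is read from them.

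The median Elk1-/-Elk4-/- difference from WT cells (2.97, 3.04, 2.86 and 3.18 at the 4 times) was 2.67, 2.72, 2.60 and 2.89 with 8 added, 3.43, 3.54, 3.38 and 3.54 with the replicate block, 3.20, 3.38, 3.29 and 3.43 against WT replicates 4 to 6, 2.73, 2.70, 2.56 and 2.44 against replicates 7 to 9, and 2.13 against DMSO. The cause of these shifts was not tested.

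Leaving out 1 replicate gave medians of 2.91 to 3.06, 2.96 to 3.12, 2.77 to 2.98 and 3.09 to 3.43. Counts stayed at 1 for Map3k8[D270A] against WT and LPS in WT, Map3k8[D270A], Elk1-/-Elk4-/- and RSKi47 cells. They stayed at 0 for Nfkb1[SS/AA] against WT, for LPS in Nfkb1[SS/AA] and PD0325901 cells and for RSKi47 against DMSO. They ran from 1 to 2 for differences of response (2 without WT replicate 7), 0 to 1 for longer PD0325901 (0 without replicate 1 or 3; without replicate 2 Ltf was called at 70 min instead of 40 min), 4 to 5 for PD0325901 with LPS, 3 to 5 for RSKi47 against WT, 3 to 4 for DMSO, 1 to 2 for other neutrophil genes (2 without Elk1-/-Elk4-/- replicate 4 or WT replicate 5) and 4 to 6 for other cell types. The 1 other neutrophil gene of the main count was Chil1. It passed the filter only through Elk1-/-Elk4-/- libraries, so nothing is read from that count. Depth is unknown, so low genes such as Cd177, Retnlg and Camp carry no counting limit here.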

Other observations

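Several granule genes that did not pass the filter on low values were also higher in Elk1-/-Elk4-/- than in WT cells without LPS, and were picked after their values were seen. They received no test. Itgb2l, an integrin subunit gene, was at 2.76 ± 0.20 (SD, n = 4) and 1.58 ± 0.04 (n = 6), and Pglyrp1, a peptidoglycan recognition protein, at 2.48 ± 0.21 and 1.58 ± 0.07. Olfm4, which marks a subset of neutrophils, was at 2.04 ± 0.13 and 1.05 ± 0.04. Fcnb, ficolin B, was at 1.47 ± 0.15 and 0.63 ± 0.03, and Wfdc21 was at 1.65 ± 0.05 and 1.09 ± 0.01. The libraries of the genotypes did not overlap for any of these 5 genes, and those of Elk1-/-Elk4-/- lay wholly above WT for 3.13% of the 6127 genes below the filter and 14.7% of all genes.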
